A study of Mus musculus with 3 samples.

Results

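Transcripts of 27 genes of cholesterol synthesis and of its control by the transcription factor SREBP2 were followed in mouse liver. The genes were taken by symbol from a list of enzymes, sterol sensors, known SREBP2 targets and 1 LXR target of lipoprotein receptor turnover, drawn up with earlier results of these data known, and all 27 were found among the 49492 entries of the count tables. The list does not hold every enzyme of the pathway, and the enzymes outside it were not analysed here. RNA from livers of CD-1 mice, an outbred strain, was sequenced in 3 libraries. They came from mice dosed orally with nanoparticles of zinc oxide (ZnO), sonicated into suspension, at 25 mg per kg body weight per day for 12 weeks, from mice given the same dose for 8 weeks, and from control mice given phosphate-buffered saline (PBS) by mouth. The labels give no sex, age, number of animals in a library, duration of PBS dosing or hour of collection. Each group was 1 library, so no difference has a replicate check, no p-value is given, and a difference between libraries cannot be told apart from a difference between the animals in them.

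Liver makes cholesterol from acetyl-CoA through mevalonate, isoprenyl diphosphates, squalene and lanosterol. The genes of this route are read together because most are targets of SREBP2, which is held in the endoplasmic reticulum (ER) by SCAP and the INSIG proteins while sterols are plentiful, and is cut and moves to the nucleus when sterols fall. In mouse liver, Insig1 is itself an SREBP target, whereas Insig2 has alternative promoters, and one liver transcript of it is known to be lowered by insulin.

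Against the control, 0 of the 20 enzymes were called higher and 1 lower at 12 weeks, whereas 6 were called higher and 0 lower at 8 weeks. Levels are counts scaled by library size (CPM), and a difference is the log2 ratio of CPM + 1, called at 2-fold. At 8 weeks against the control, 9 of 27 genes were called higher and 1 lower, where 4.15% and 2.1% of the 14585 genes kept were called. The median log2 ratio was 0.70 for the 27 genes and -0.02 for all genes kept. At 12 weeks against the control, 1 gene was called higher and 2 lower, beside 3.11% and 1.34% of all genes, with a median of 0.02 against -0.01 for all genes. Between the treated libraries, 0 of 27 genes were called higher and 9 lower at 12 weeks against 8 weeks, beside 1.28% and 1.23% of all genes, with a median of -0.60 against 0.00 for all genes. The 3 comparisons share libraries in pairs and are not independent of one another.

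Of the 27 genes, 22 had their highest CPM of the 3 libraries at 8 weeks, against 32.0% of all genes. Against the control, 14 had a log2 ratio above 0 and 13 below at 12 weeks (48.9% and 51.0% of all genes), and 23 above and 4 below at 8 weeks (48.4% and 51.6%). At 12 weeks against 8 weeks, 3 were above and 24 below (49.9% and 50.1%). Together they held 0.129% of the counts at 12 weeks, 0.211% at 8 weeks and 0.167% in the control. All 27 were at 1 CPM or more, the limit for a gene to be kept, in every library. The lowest value was Mvd in the control, at 1.77 CPM or 24 counts.

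**Figure D1:**
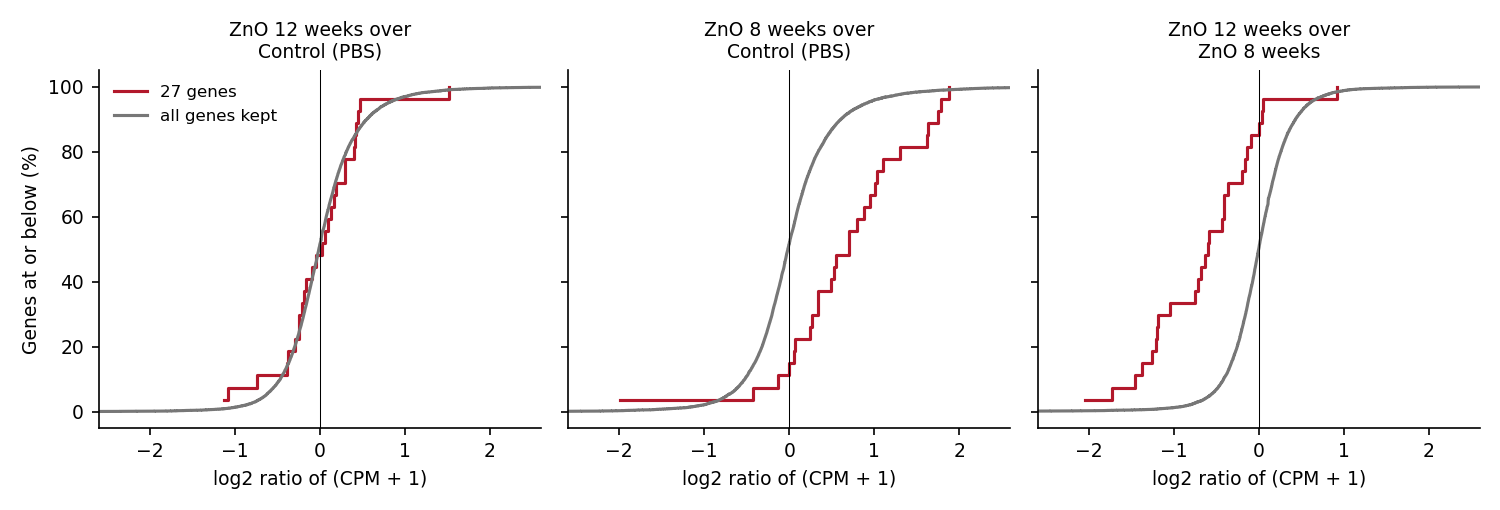
Cumulative share of genes (vertical axis, percent) at or below each log2 ratio of CPM + 1 (horizontal axis), for the 27 genes (red) and the 14585 genes kept (grey). For 8 weeks over control (median 0.70), the curve of the 27 genes lies to the right of all genes, apart from Insig2 at the far left. For 12 over 8 weeks (median -0.60) it lies to the left, apart from Insig2 at its right end. The curves run close together for 12 weeks over control (median 0.02).

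Promoters are shown for 5 genes on which the results turn: Hmgcs1, Idi1 and Msmo1 as enzymes of the early and late route, and Insig1 and Insig2 as the pair that went opposite ways at 8 weeks. Each is 250 bases before to 50 bases after a transcription start, from RefSeq on GRCm38.p6, written 5′ to 3′ on the strand of the gene. Capitals mark the sterol response element TCACNCCAC and the NF-Y box CCAAT, each searched on both strands. An NF-Y box on the other strand reads ATTGG. Insig2 has 3 windows, and the one with the most NF-Y boxes is shown, which is also the farthest upstream. Its other windows hold no match to either motif.
Hmgcs1 promoter, chr13:119690101-119690400, plus strand: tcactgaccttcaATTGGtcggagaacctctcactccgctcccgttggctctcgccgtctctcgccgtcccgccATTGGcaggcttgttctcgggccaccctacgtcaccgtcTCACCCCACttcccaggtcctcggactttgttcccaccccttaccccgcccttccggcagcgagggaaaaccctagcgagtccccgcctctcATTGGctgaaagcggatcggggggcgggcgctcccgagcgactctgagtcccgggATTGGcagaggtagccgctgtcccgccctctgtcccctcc
Idi1 promoter, chr13:8885356-8885655, plus strand: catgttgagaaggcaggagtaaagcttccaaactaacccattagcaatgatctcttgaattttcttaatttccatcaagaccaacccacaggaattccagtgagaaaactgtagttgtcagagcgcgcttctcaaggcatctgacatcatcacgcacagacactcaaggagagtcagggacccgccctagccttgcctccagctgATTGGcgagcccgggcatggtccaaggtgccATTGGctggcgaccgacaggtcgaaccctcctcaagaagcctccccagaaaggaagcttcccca
Msmo1 promoter, chr8:64733529-64733828, minus strand: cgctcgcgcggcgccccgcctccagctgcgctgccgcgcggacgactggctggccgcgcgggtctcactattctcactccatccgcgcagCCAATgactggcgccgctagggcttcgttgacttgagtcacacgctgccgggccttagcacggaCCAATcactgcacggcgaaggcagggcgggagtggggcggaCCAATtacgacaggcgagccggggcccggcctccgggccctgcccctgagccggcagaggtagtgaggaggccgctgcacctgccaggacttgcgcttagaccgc
Insig1 promoter, chr5:28071162-28071461, plus strand: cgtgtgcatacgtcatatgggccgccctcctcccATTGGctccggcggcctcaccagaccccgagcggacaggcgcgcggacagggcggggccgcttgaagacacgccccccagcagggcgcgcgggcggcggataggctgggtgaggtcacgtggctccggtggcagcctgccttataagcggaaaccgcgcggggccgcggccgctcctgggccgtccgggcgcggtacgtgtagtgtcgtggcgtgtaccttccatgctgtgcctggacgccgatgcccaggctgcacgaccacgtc
Insig2 promoter, chr1:121332540-121332839, minus strand: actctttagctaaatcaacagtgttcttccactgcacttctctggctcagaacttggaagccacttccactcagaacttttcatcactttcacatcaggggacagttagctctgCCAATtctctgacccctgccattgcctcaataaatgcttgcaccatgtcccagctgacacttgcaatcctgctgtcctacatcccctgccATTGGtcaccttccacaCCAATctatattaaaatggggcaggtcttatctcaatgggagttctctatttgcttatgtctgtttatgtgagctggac
The sterol response element stands 137 to 129 bases before the start of Hmgcs1 and was found in 1 of the 29 windows of the members, against 1.24% of all 32851 windows. NF-Y, a factor known to act beside SREBP2, has its CCAAT box in 20 of the 29 windows (69.0%), against 37.4% of all windows. By gene, it was in a window of 20 of the 23 members with a window, against 41.1% of all genes. The 3 without it were Acat2, Scap and Aacs. No window was available for Fdps, Sqle, Fdft1 and Stard4, so the motif shares leave these genes out. The E-box CACGTG, which reads the same on both strands, was in 6 of the 29 windows, against 7.15% of all windows, and 1 of the 6 was that of Insig1. By gene, the E-box was in 5 of the 23 members, against 8.09% of all genes, as Scap has it in overlapping windows. No matches of different motifs overlapped in these windows. A match in these letters is a description and no measure of binding. Only these exact letters were searched, so a window without a match is not shown to lack a sterol response element.

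The first 8 enzymes lead from acetyl-CoA to the prenyl diphosphates. At 8 weeks against the control, 7 of these 8 had a log2 ratio above 0 and 3 were called higher. Idi1 (chr13:8885501-8892451), the isomerase that sets up isoprene units for joining, had 141 counts at 12 weeks, 538 at 8 weeks and 142 in the control. Fdps, which joins them into farnesyl diphosphate, had 127 counts at 12 weeks, 380 at 8 weeks and 95 in the control. For both genes the 8-week library was the highest. The 12-week interval against the control held no change for Idi1 (-0.32 to 0.37) and lay above it for Fdps (0.06 to 0.85). Against the control, the 8-week log2 ratios were 1.75 for Idi1 (95% interval of the count ratio 1.57 to 2.12) and 1.78 for Fdps (1.59 to 2.26). These intervals are exact and use the counts with nothing added; they cover counting error only and hold no spread between animals. Pmvk, a kinase of the route, was the other gene called, with 150, 259 and 107 counts at 12 weeks, at 8 weeks and in the control (8 weeks over control 1.10, 0.87 to 1.54).

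Hmgcs1 (chr13:119690462-119708086), the cytosolic synthase that makes HMG-CoA, followed another course. It had 1778 counts at 12 weeks, 5304 at 8 weeks and 3984 in the control, so the 12-week library was the lowest of the 3. It was lower at 12 weeks than in the control (-1.12, interval -1.21 to -1.05) and stood at 0.33 (0.27 to 0.39) at 8 weeks. Acat2, which makes acetoacetyl-CoA, had 284, 474 and 252 counts at 12 weeks, at 8 weeks and in the control. Acat2 has a close copy next to it, Acat3, with 1604, 2226 and 1758 counts in the same order, and reads may be split between them. The mevalonate kinase Mvk and the decarboxylase Mvd had 24 to 57 counts in any library, too few for a narrow interval (8 weeks over control 0.27 to 1.65 and 0.01 to 1.55).

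Ggps1 makes geranylgeranyl diphosphate for protein prenylation, a branch away from cholesterol. It had 47 counts at 12 weeks, 49 at 8 weeks and 67 in the control, and was the only enzyme of the 20 with a log2 ratio below 0 at 8 weeks (-0.43, interval -1.09 to 0.02), which holds no change. A list of 13 genes covered other uses of the same diphosphates, among them prenyl transferases and the enzymes that build ubiquinone and dolichol chains. It had 0 members called in any comparison, which is near the share of all genes, at 1.23% to 4.15% in each direction. Its medians were -0.02 at 12 weeks and -0.08 at 8 weeks against the control.

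The enzymes from squalene to lanosterol were all above the control at 8 weeks. Sqle, the epoxidase that carries out the first oxygen-dependent step, had 259 counts at 12 weeks, 664 at 8 weeks and 196 in the control (8 weeks over control 1.62, interval 1.45 to 1.92). Fdft1, squalene synthase, had 674 counts at 12 weeks, 1680 at 8 weeks and 818 in the control (0.95, 0.84 to 1.08), just short of the 2-fold line. Lss, which closes the ring system, had 494, 714 and 459 counts in the same order (0.55, 0.39 to 0.73). At 12 weeks against 8 weeks, Sqle (-1.20, -1.46 to -1.04) and Fdft1 (-1.19, -1.34 to -1.07) were called lower.

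In the last stretch, from lanosterol to cholesterol, 9 enzymes were measured, of which Msmo1 and Nsdhl were called higher at 8 weeks against the control and none was called at 12 weeks. Msmo1 (chr8:64718139-64733792), the methylsterol oxidase, had 209 counts at 12 weeks, 974 at 8 weeks and 367 in the control, so that its 12-week level was below the control and its 8-week level far above both. Its log2 ratios were -0.74 (-1.03 to -0.53) at 12 weeks and 1.30 (1.15 to 1.51) at 8 weeks against the control. Between the treated libraries it had the lowest ratio of the 27 genes (-2.04, -2.33 to -1.89). Nsdhl, the dehydrogenase that acts next, had 150 counts at 12 weeks, 392 at 8 weeks and 111 in the control (8 weeks over control 1.63, 1.43 to 2.06). Cyp51, the demethylase at the start of this stretch, had 852, 1914 and 978 counts at 12 weeks, at 8 weeks and in the control (8 weeks over control 0.88, 0.78 to 1.00).

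Hsd17b7 and Ebp, a ketoreductase and a sterol isomerase further along, were not called in any comparison. Ebp had 1304 counts at 12 weeks, 1413 at 8 weeks and 1276 in the control, with intervals of -0.05 to 0.18 at 12 weeks and -0.04 to 0.18 at 8 weeks against the control. Hsd17b7 had 1163, 1390 and 1268 counts in the same order. Of the final enzymes, the desaturase Sc5d had 1778, 3163 and 2368 counts and the reductase Dhcr7 had 174, 310 and 204 counts, again at 12 weeks, at 8 weeks and in the control. Tm7sf2 and Lbr both carry out the same reductase step, and Lbr is also a protein of the nuclear membrane. Tm7sf2 had 480, 693 and 399 counts and was above the control at 8 weeks (0.70, 0.54 to 0.90), whereas the interval of Lbr held no change (-0.08 to 0.68), and the difference between these genes was not tested.

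**Figure D2:**
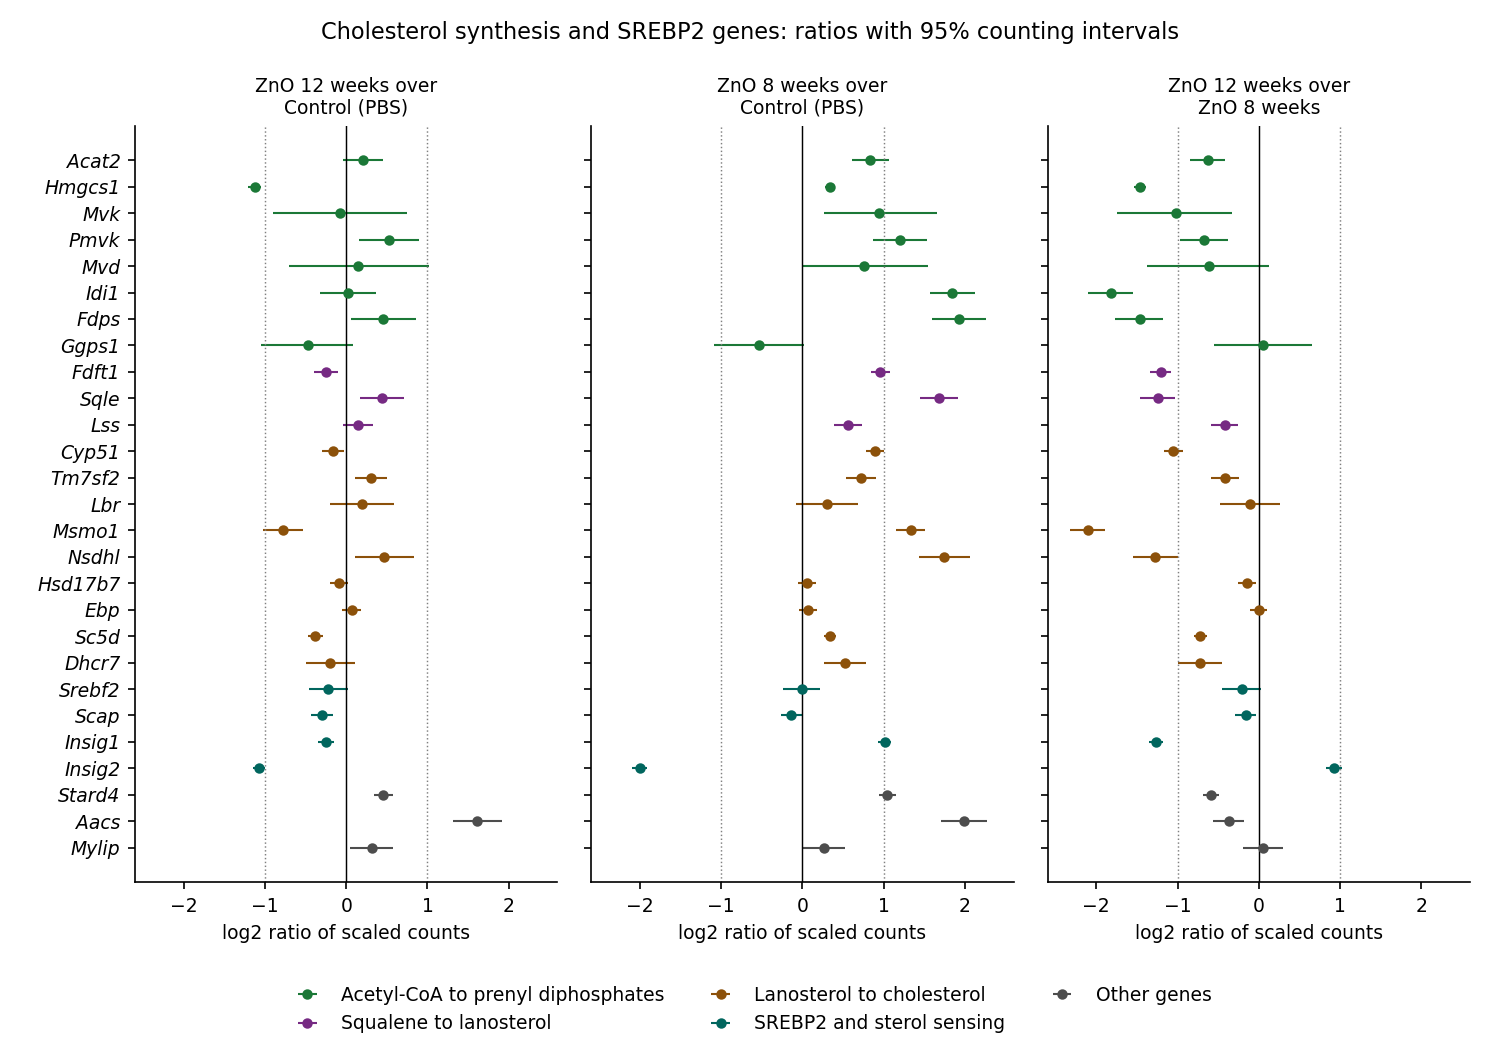
Log2 ratio of scaled counts (horizontal axis, without the added CPM) with exact 95% counting intervals for each of the 27 genes (rows, in pathway order, coloured by role) in the 3 comparisons. Solid lines mark no change and dotted lines 2-fold. At 8 weeks over control most enzymes lie to the right of 0 and Insig2 lies far to the left, while at 12 weeks over control Aacs lies far to the right and Hmgcs1 and Insig2 lie to the left.

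Over the 20 enzymes, the 8-week interval lay above no change for 16 and below for 0. At 12 weeks against the control it lay above for 5 and below for 5. Of all genes kept, 23.6% lay above and 24.2% below at 8 weeks, and 21.0% and 22.4% at 12 weeks. At 12 weeks against 8 weeks, the interval lay below no change for 20 of the 27 genes and above for 1, Insig2, beside 19.2% and 19.0% of all genes. Wide shares of all genes thus lay outside counting error, and the interval is a weaker rule than 2-fold.

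Among the sensors, Insig2 and Insig1 were called in opposite directions at 8 weeks. Insig2 (chr1:121304353-121332589) had 2253 counts at 12 weeks, 1281 at 8 weeks and 4873 in the control, and both treated libraries were below the control. Its log2 ratios against the control were -1.07 (-1.15 to -1.01) at 12 weeks and -1.99 (-2.10 to -1.92) at 8 weeks. Its 8-week ratio was the 43rd lowest of the 14585 genes kept. Insig1 (chr5:28071363-28078662) had 1506 counts at 12 weeks, 3900 at 8 weeks and 1833 in the control. It was at the 2-fold line at 8 weeks (1.01, 0.93 to 1.09) and stood at -0.25 (-0.35 to -0.15) at 12 weeks. Per length, Insig2 stood at 1.33 times the level of Insig1 at 12 weeks (interval 1.25 to 1.42), 0.293 times at 8 weeks (0.274 to 0.312) and 2.37 times in the control (2.24 to 2.50), so the order of the pair was turned round in the 8-week library. The summed level of both was 178 TPM (counts per length, scaled to the same sum in each library) at 12 weeks, 241 at 8 weeks and 302 in the control. The counts do not separate the transcripts of Insig2 that start at different promoters.

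Srebf2, which encodes SREBP2 itself, was not called in any comparison, with 265 counts at 12 weeks, 332 at 8 weeks and 316 in the control. Its intervals against the control held no change at 12 weeks (-0.46 to 0.02) and at 8 weeks (-0.23 to 0.22). Scap, its escort protein, had 856, 1037 and 1079 counts in the same order and stood at -0.29 (-0.43 to -0.17) at 12 weeks against the control. Transcript counts do not show how much SREBP2 is cut or enters the nucleus.

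**Figure D3:**
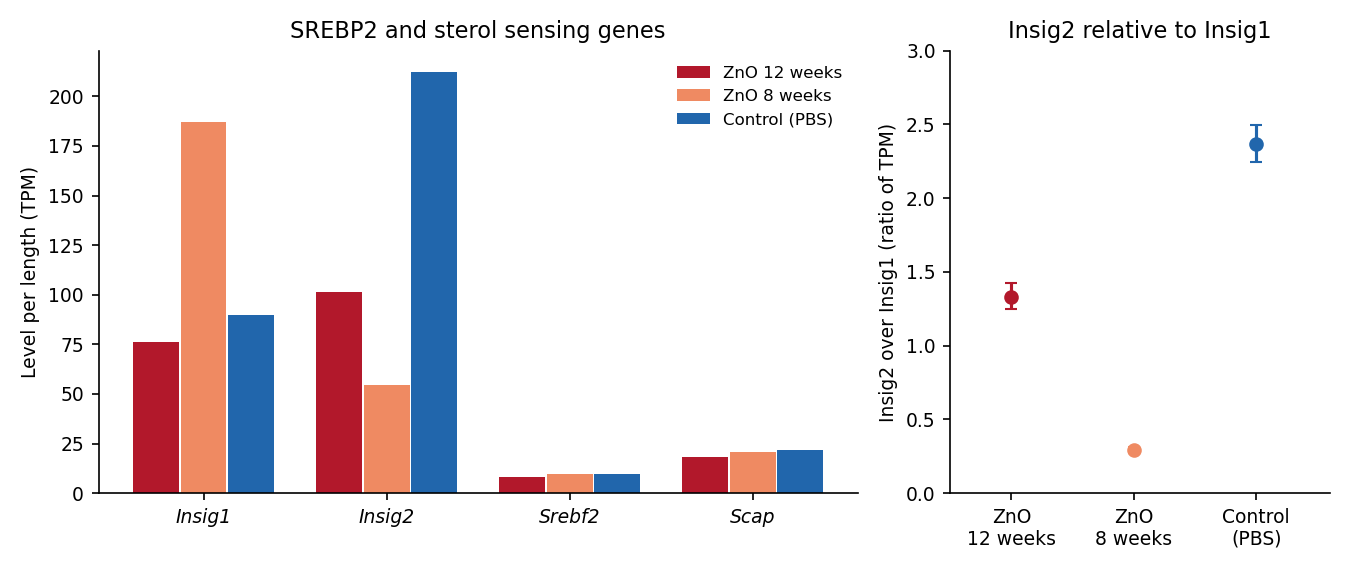
Left, level per length (TPM) of Insig1, Insig2, Srebf2 and Scap in the 3 libraries, 1 bar per library. Right, the ratio of Insig2 to Insig1 with its exact 95% counting interval: 1.33 at 12 weeks, 0.293 at 8 weeks and 2.37 in the control.

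The 3 genes outside the route all had 12-week intervals above the control, and Aacs was the 1 called. Aacs (chr5:125475814-125517410), the cytosolic synthetase that turns the ketone body acetoacetate into acetoacetyl-CoA for lipid synthesis, had 382 counts at 12 weeks, 534 at 8 weeks and 128 in the control. Its log2 ratios against the control were 1.52 (1.32 to 1.91) at 12 weeks and 1.87 (1.70 to 2.27) at 8 weeks. Stard4, a carrier that moves sterol between membranes, had 1381, 2246 and 1032 counts at 12 weeks, at 8 weeks and in the control (12 weeks over control 0.45, 0.34 to 0.57; 8 weeks over control 1.03, 0.94 to 1.15). Mylip, a ubiquitin ligase for lipoprotein receptors that is known as a target of the sterol receptor LXR and not of SREBP2, had 266, 277 and 219 counts in that order. Its ratios against the control were 0.30 (0.05 to 0.58) at 12 weeks and 0.25 at 8 weeks, where the interval just held no change, and neither was called.

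Compared per length, the 27 genes spanned from 1.52 TPM (Mvk) to 102 TPM (Insig2) at 12 weeks, from 3.07 TPM (Ggps1) to 243 TPM (Hmgcs1) at 8 weeks, and from 1.58 TPM (Mvk) to 212 TPM (Insig2) in the control. The order at the top differed: at 12 weeks Insig2 was followed by Ebp, at 8 weeks Hmgcs1 by Insig1, and in the control Insig2 by Hmgcs1. Summed over role, the 8 enzymes up to the prenyl diphosphates had 135 TPM at 12 weeks, 339 at 8 weeks and 228 in the control, of which Hmgcs1 gave 86.1, 243 and 186. The enzymes from squalene to lanosterol had 51.4, 115 and 55.1 TPM, and those from lanosterol on had 255, 377 and 269 TPM, in the same order. None of the other 7 early enzymes was called lower at 12 weeks against the control, which is near the share of all genes (1.34%).

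**Figure D4:**
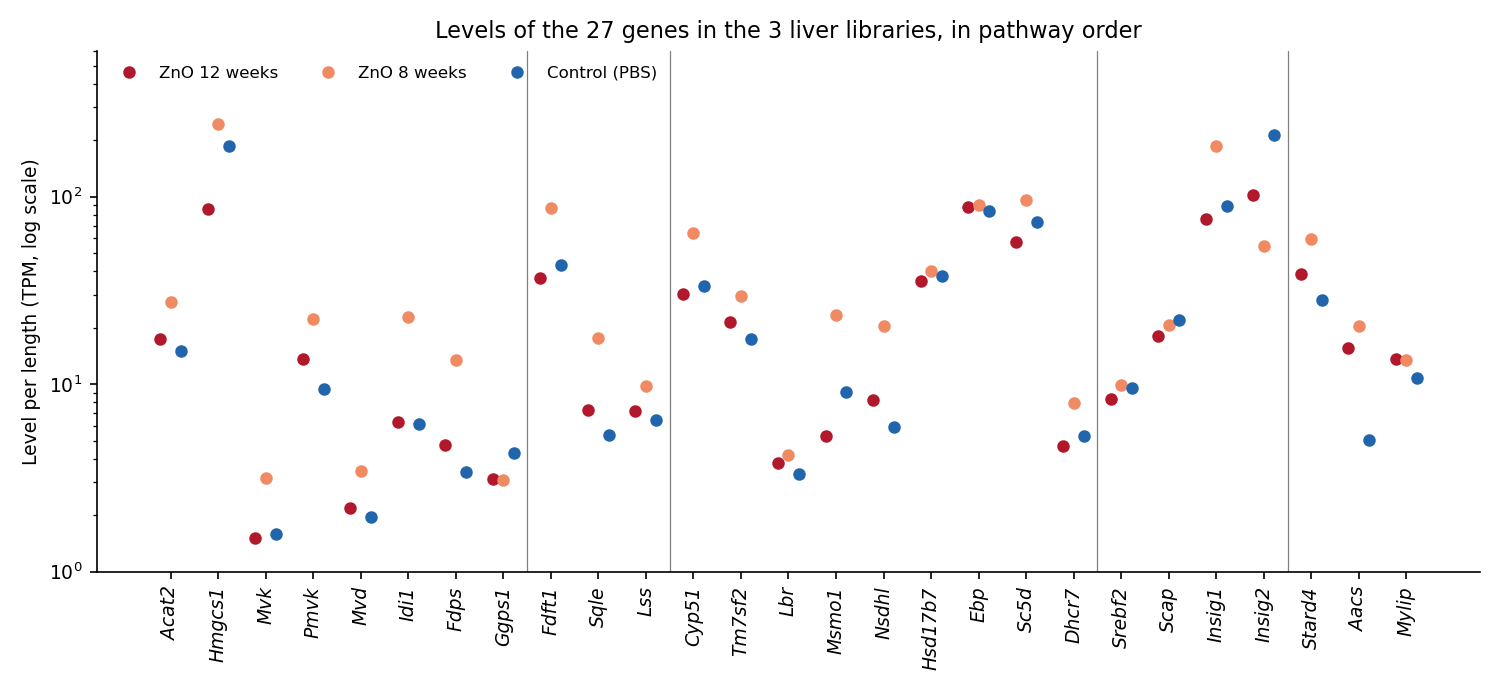
Level per length (TPM, log scale) of the 27 genes in the 12-week (dark red), 8-week (orange) and control (blue) libraries, 1 point per library, in pathway order with grey lines between roles. The 8-week point is the highest for every gene but Ggps1, Scap, Insig2 and Mylip, and it is the lowest for Ggps1 and Insig2. Scap is highest in the control; for Srebf2 the 8-week and control points nearly coincide, and their order in CPM is the reverse.

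Genes around the route were described by lists with the same 2-fold rule. Of all genes kept, 3.11% were called higher and 1.34% lower at 12 weeks against the control, and 4.15% and 2.1% at 8 weeks. Of 15 genes, most of which process or turn over SREBP and its partners, 1 was called higher at 12 weeks against the control. At 8 weeks 1 was called higher and 1 lower (medians -0.08 at 12 weeks and 0.02 at 8 weeks). These counts are near the shares of all genes. The higher one was Rnf145, a ubiquitin ligase of the ER, at 1.20 and 1.55, and the lower one was Syvn1, a ligase of ER-associated degradation, at -1.16. The proteases that cut SREBP, Mbtps1 and Mbtps2, had 751 and 170 counts at 12 weeks, 714 and 180 at 8 weeks and 716 and 166 in the control. Of 20 genes of fatty acid synthesis that are mostly SREBP1 targets, 8 were called higher and 1 lower at 12 weeks, and 10 higher and 0 lower at 8 weeks. The largest log2 ratios against the control were those of Scd1 (3.75 at 12 weeks and 4.19 at 8 weeks) and Thrsp (3.64 and 4.72). Elovl5, the gene called lower at 12 weeks, stood at -1.42. Acaca, which makes malonyl-CoA, had 1702, 1798 and 368 counts at 12 weeks, at 8 weeks and in the control. Fasn, the fatty acid synthase, had 1128, 1592 and 448 counts in the same order. Srebf1, the SREBP1 gene, had 274, 641 and 305 counts in the same order.

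Of 12 genes of LXR and sterol efflux, 2 were called higher at 12 weeks and 3 at 8 weeks, with 0 lower in either. Of all genes kept, 3.11% and 4.15% were called higher at 12 and at 8 weeks, and 1.34% and 2.1% lower. The phospholipid transfer protein Pltp, called in both, had 565 counts at 12 weeks, 959 at 8 weeks and 228 in the control. The small GTPase Arl4c, also called in both, had 44, 54 and 12 counts in that order. The sterol exporter Abcg1, called at 8 weeks and not at 12 weeks, had 63, 76 and 27 counts. Of 17 genes of sterol transport and esterification, 1 was called higher in each comparison with the control, which is near the share of all genes. It was the esterifying enzyme Soat1, with 94, 107 and 38 counts at 12 weeks, at 8 weeks and in the control. Soat1 and Abcg1 are also made by macrophages. Among 16 kept genes of bile acid and oxysterol synthesis, 2 were called higher and 4 lower at 12 weeks, and 1 higher and 4 lower at 8 weeks. Akr1d1, called higher in both, had 1358, 3380 and 602 counts in that order, and Cyp39a1, called higher at 12 weeks, had 595, 298 and 150. Hsd3b7, an early enzyme of bile acid synthesis called lower in both, had 555, 484 and 1454 counts. Cyp8b1, also called lower in both, had 1127, 2327 and 4797 counts (-2.04 at 12 weeks and -1.12 at 8 weeks). Cyp7b1, called lower at 8 weeks and not at 12 weeks, had 2914, 932 and 3714 counts. Nr0b2, called lower at 12 weeks and not at 8 weeks, had 144, 188 and 323 counts. Cyp46a1, a cholesterol hydroxylase called lower at 8 weeks and not at 12 weeks, had 1902, 688 and 3620 counts. Cyp7a1, called lower at 12 weeks and not at 8 weeks, had 782, 3604 and 2240 counts.

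Clock genes and markers of other cells also differed between these libraries, and their part in the results was not tested. Of 21 clock genes, 3 were called higher and 1 lower at 12 weeks, and 8 higher and 4 lower at 8 weeks. The shares of all genes were 3.11% and 1.34% at 12 weeks and 4.15% and 2.1% at 8 weeks. Arntl had 70 counts at 12 weeks, 20 at 8 weeks and 245 in the control. Cholesterol synthesis is known to vary over the day in rodent liver, and the hour of collection is not given. Markers of Kupffer cells, the macrophages of liver, were called higher for 12 of 13 genes at 12 weeks and 13 of 13 at 8 weeks, with summed levels of 312, 413 and 99.0 CPM at 12 weeks, at 8 weeks and in the control and none at 0 counts. Their median log2 ratio was 1.56 at 12 weeks and 1.90 at 8 weeks, beside 0.02 and 0.70 for the 27 genes. In bulk tissue, more cells of a type and more RNA per cell cannot be told apart. The 12 hepatocyte markers were all present, with 0 called in either direction against the control and sums of 64685, 63167 and 50046 CPM in the same order. Alb alone gave 31169, 31793 and 21847 CPM of these sums. Of the 12 markers, 10 had a log2 ratio above 0 and 2 below in each comparison with the control. Of all genes, 48.9% were above 0 at 12 weeks and 48.4% at 8 weeks. Skeletal muscle markers were nearly limited to the 8-week library, with 16, 2538 and 26 summed counts over 10 genes, of which 5, 0 and 6 were at 0.

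Some values are uncertain because genes overlap. The exons of Fdps share 1124 bases (26.7% of its exon length) with the predicted gene Gm43738 on the same strand, which had 148 counts at 12 weeks, 372 at 8 weeks and 106 in the control, close to those of Fdps itself. The exons of Fdft1 share 767 bases (26.8%) with Ctsb on the opposite strand, and Ctsb had 4044, 4540 and 3203 counts in the same order. The exons of Tm7sf2 share 15.3% and those of Scap 13.2% of their length with another entry, and Ggps1, Lss, Cyp51 and Lbr share less than these. The use of strand in counting was not given in the sources used here.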

How the data were processed

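RNA sequencing of total liver RNA was deposited as 1 table per library, with exon positions, an exon length and 1 value per gene. The deposited values are estimated counts without normalization, as judged from the file headers and from the numbers: 71.5%, 70.2% and 70.4% of values above 0 were whole within 0.005 at 12 weeks, at 8 weeks and in the control. Builds mm9 and mm10 and the tools TopHat2 2.1.0 and Cufflinks 2.2.1.0 are listed, per the submitters' processing notes, with no role. The counting program was not given in the sources used here. Of the symbols, 95.4% were in GENCODE release M21 (GRCm38), 90.9% of these with the same start and end, so coordinates are those of mm10. RefSeq promoters were used for motifs.

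Estimated counts were rounded. Totals were 13263211 at 12 weeks, 14258770 at 8 weeks and 13614979 in the control, where 3 counts correspond to 0.227, 0.209 and 0.221 CPM. Libraries were scaled by TMM (edgeR 4.0.16, R 4.3.3; factors 0.999, 1.005 and 0.997). Genes at 1 CPM or more in at least 1 library were kept, 1 CPM was added before log2 ratios were taken (so changes of low genes are understated), and 2-fold is a rule of size, not a test. Intervals of count ratios are exact (Clopper-Pearson, 95%); amplified reads are not independent molecules, which they do not cover. TPM used the exon lengths in the tables. Intervals and calls were checked on simulated counts with counting noise only, the noise that the intervals assume. The check therefore does not cover spread between animals. All 27 members are named; of other lists, up to 4 of the genes called or else abundant ones, and any further gene was picked with its values known. The members and lists were chosen with earlier results of these data known. Alternatives were other pseudocounts, filters, scalings (DESeq2 1.42.0 size factors, upper quartile, total count), TPM, a 1.5-fold call and, added after seeing the data, a call by the counting interval.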

Additional observations from a re-analysis of the deposited data

Results flagged for a closer look

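For 6 of the 27 genes the counting interval lay below the control at 12 weeks and above it at 8 weeks, a pattern that 1.13% of all 14585 genes kept showed. The difference between the treated libraries was not tested over animals, and both ratios use the same control library. The log2 ratios at 12 and at 8 weeks were -1.12 and 0.33 for Hmgcs1, -0.74 and 1.30 for Msmo1, and -0.38 and 0.34 for Sc5d. They were -0.24 and 0.95 for Fdft1, -0.16 and 0.88 for Cyp51, and -0.25 and 1.01 for Insig1.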

How the results depend on the processing

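No paired analysis was possible because each group holds 1 library. Counts of called genes and medians over the 27 genes kept their direction under all other pseudocounts, filters and scalings and under TPM. With a pseudocount of 5 CPM, 6 genes in place of 9 were called higher at 8 weeks over control, and 7 in place of 9 lower at 12 over 8 weeks. The calls lost were those of Pmvk, Insig1 and Stard4, at 1.01 to 1.10 with 1 CPM added, and of Cyp51 and Nsdhl, at -1.04 and -1.20. A 1.5-fold call gave 14 higher and 1 lower at 8 weeks over control (10.6% and 7.97% of all genes). It gave 1 higher and 3 lower at 12 weeks over control (9.28% and 6.22%). At 12 over 8 weeks it gave 14 lower and 1 higher (4.73% and 5.41%). Calling by the counting interval was an alternative added after seeing the data. It gave 8 higher and 8 lower at 12 weeks over control, beside 21.0% and 22.4% of all genes. It gave 19 and 2 at 8 weeks over control (23.6% and 24.2%), and 1 and 20 at 12 over 8 weeks (19.0% and 19.2%). Of 486 ratios of single genes recomputed, 480 moved by less than their counting interval, 6 moved by more (all with the pseudocount of 5 CPM) and 0 of those called changed sign. Depth limits Mvk, Mvd and Ggps1, whose counts were under 100 in every library.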
